A study of Mus musculus with 4 samples.

Results

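The collagen chain genes are the genes whose symbol is Col, a number, the letter a and a second number, and 44 of the 55450 genes in the matrix carry such a symbol. They were described in single cells of 4T1 tumours, by 10x Genomics droplet sequencing, in which each captured transcript is counted once by its unique molecular identifier (UMI). 4T1 is a mouse mammary carcinoma line. In every sample 1000000 4T1 cells in 25 µl PBS had been implanted in the flank of a female BALB/c mouse aged 6 to 8 weeks, an intravenous injection followed on day 7, near-infrared (NIR) light of 980 nm at 1.0 W cm-2 was given for 5 min on each day from day 8 to day 10, and the tumour was taken on day 13. The injection was PBS for the samples titled LC-2 and LC-5, and TIOs, a T-cell-inspired oncolytic system controlled by NIR light, for LC-6. A sample titled PBS has a protocol that names TIOs, and it was placed in neither group. No source used here says how many mice made up a sample. The matrix joins 4 libraries, told apart by the suffix of the cell barcode, and no source used here ties a suffix to a sample. The libraries, called 1 to 4 after the suffix, are therefore samples of unknown treatment: treatments were not compared, no p-value was computed, and nothing below has a replicate check.

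Collagens are proteins built from 3 polypeptide chains wound into a triple helix, and each chain has a gene of its own. Most are secreted and a few are transmembrane. Some helices hold a single kind of chain and others combine chains of several genes, so that partner genes have to be transcribed in the same cell. In a tumour, fibrillar collagens make up much of the stroma, type IV collagen forms the basement membrane sheet under vessels and epithelium, and fibroblasts are known as the main collagen-making cells.

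The analysis kept 32133 of 33064 barcodes, those with at least 300 genes and at most 15% mitochondrial UMIs. The libraries held 69255999 to 108646352 UMIs, with a median of 2524.5 to 11094 UMIs per barcode. A cell was assigned to a class when at least 3 of the 8 markers of that class had a UMI and this number led every other class by at least 2. This gave 2799 fibroblasts, 119 pericytes and smooth muscle cells (called pericytes here), 259 endothelial cells, 3466 tumour cells, 35 keratinocytes and 21852 immune cells. The methods describe a sort for CD45, the protein made from Ptprc, yet the non-immune classes were present in number. Libraries differed in their make-up. Library 1 held 3321 of the tumour cells, all of the keratinocytes and 131 of the fibroblasts, while libraries 2, 3 and 4 held 1221, 965 and 482 fibroblasts. Pericytes reached 20 cells in libraries 2 and 3 only (66 and 31), endothelial cells in libraries 1, 2 and 3 (54, 157 and 39), and tumour cells in libraries 1 and 2 (3321 and 144), so that values per library are given for those. Between pairs of libraries, 101 barcode sequences were shared, which touched 196 kept cells and 13 fibroblasts.

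For a view of the sequence around the start of chains with different leading cells, the 250 bases before the RefSeq start (GRCm38.p6) are printed for Col3a1, which led in fibroblasts, Col13a1, which led in endothelial cells, and Col7a1, whose level depended most on the library. Capitals mark matches to 3 short motifs on either strand, which are the box TATAAA, the box with the letters CCAAT, and the GC box spelled GGGCGG. Col3a1 lies at chr1:45311288-45311537 on the plus strand, Col13a1 at chr10:61979109-61979358 on the minus strand and Col7a1 at chr9:108953336-108953585 on the plus strand.
Col3a1: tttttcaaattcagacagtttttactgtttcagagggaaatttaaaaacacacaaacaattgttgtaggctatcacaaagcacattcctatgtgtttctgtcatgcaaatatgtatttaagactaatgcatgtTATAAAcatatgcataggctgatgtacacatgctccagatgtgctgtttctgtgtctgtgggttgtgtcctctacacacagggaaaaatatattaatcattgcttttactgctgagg
Col13a1: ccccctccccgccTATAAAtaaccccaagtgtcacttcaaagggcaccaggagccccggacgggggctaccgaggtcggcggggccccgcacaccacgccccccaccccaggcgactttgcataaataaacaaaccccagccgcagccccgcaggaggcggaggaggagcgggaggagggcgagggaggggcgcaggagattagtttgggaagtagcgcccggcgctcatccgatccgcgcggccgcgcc
Col7a1: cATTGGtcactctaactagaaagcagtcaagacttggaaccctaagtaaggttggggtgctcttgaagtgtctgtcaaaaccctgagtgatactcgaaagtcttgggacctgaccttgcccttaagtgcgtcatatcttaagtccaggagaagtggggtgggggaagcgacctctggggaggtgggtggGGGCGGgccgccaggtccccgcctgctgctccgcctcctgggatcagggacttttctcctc
The windows differ in base composition. G and C made up 35.2% of the bases for Col3a1, 68.8% for Col13a1 and 56.4% for Col7a1. TATAAA began 117 bases before the start of Col3a1 and 237 bases before that of Col13a1. Col7a1 held GGGCGG 61 bases before its start and, on the opposite strand, CCAAT at the far end of the window. Of the 44 chains, 35 had a promoter in the table, with 38 windows between them. GGGCGG stood in 22 of the 38 windows (57.9%) and in 32.7% of all 32817 windows of this length, CCAAT in 13 (34.2%) and in 33.8%, and TATAAA in 5 (13.2%) and in 12.4%. A match in letters is a description of the window and not of a site in use.

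The genes lie on 15 chromosomes, and 8 neighbouring pairs are within 100 kb of each other in the GENCODE vM21 annotation (GRCm38). Col4a1 (chromosome 8, 11198423 to 11312826, minus strand) and Col4a2 (chromosome 8, 11312805 to 11449287, plus strand) start back to back, and the annotated genes overlap by 22 bases. Col3a1 (chromosome 1, 45311538 to 45349706, plus strand) and Col5a2 (chromosome 1, 45374321 to 45503282, minus strand) face each other end to end across 24614 bases. Col6a2 and Col6a1 follow each other on the minus strand of chromosome 10, whereas their partner Col6a3 is on chromosome 1, from 90765923 to 90843971.

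Fibroblasts carried most of the collagen RNA. Collagen UMIs made up 3.57% of all fibroblast UMIs (exact 95% binomial interval 3.567 to 3.575), against 1.45% in pericytes, 0.512% in endothelial cells, 0.148% in immune cells and 0.0643% in tumour cells. The order of the last 2 was reversed in library 1, with 0.0522% in tumour cells and 0.0285% in immune cells. In library 2 tumour cells had 0.228% and immune cells 0.229%, with overlapping counting intervals. Without library 1, which held most tumour cells, the share of tumour cells was 0.228%. Intervals here reflect counting error only, not the spread among mice. Fibroblasts were 9.81% of the gated cells, held 28.9% of the UMIs of gated cells and 91.3% of their collagen UMIs. A further 961912 collagen UMIs, outside this share, were in the 3569 kept cells that met no class, next to 2907518 in fibroblasts.

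The libraries differed in this share more than counting error allows. In fibroblasts it was 4.45% in library 1, 5.73% in library 2, 2.05% in library 3 and 2.46% in library 4. Library 2 weighed most on the pooled share, which was 2.28% without it. Pericytes had 1.63% in library 2 and 0.904% in library 3, and endothelial cells had 0.565%, 0.566% and 0.301% in libraries 1 to 3. Libraries 1 and 2 were thus above libraries 3 and 4 in fibroblasts, and library 3 was the lowest in each of these classes. Single fibroblasts ranged widely, with a median of 3.42%, a 5th percentile of 0.326%, a 95th percentile of 10.3% and a maximum of 17.2%. Of the 2799 fibroblasts, 962 devoted at least 5% of their UMIs to collagen chains, whereas none of the pericytes or endothelial cells and only 5 of the 21852 immune cells did.

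Immune cells gave the background level. Neutrophils, which are not known as collagen makers, had collagen shares of 0.0289%, 0.275%, 0.166% and 0.256% in libraries 1 to 4. These are shares of summed UMIs, to which a few cells with much collagen RNA add. The median neutrophil had 0%, 0.197%, 0.0765% and 0.102% in libraries 1 to 4, and the maximum was 7.23%, in library 2. Their Col3a1 level was 0.461% of that in fibroblasts of the same library in library 1, 4.93% in library 2, 7.68% in library 3 and 9.30% in library 4, and the shares for Col1a2 and Col1a1 ran in the same order. Library 1, with the fewest fibroblasts, was the lowest for all 3 chains. From library 2 to library 4 the shares rose and the number of gated fibroblasts fell. Gated fibroblasts do not hold all of the collagen RNA of a library. In library 4 the cells that met no class held 473371 collagen UMIs and gated fibroblasts 380409, while in the other libraries fibroblasts held more. The source of the collagen RNA in neutrophils was not tested. Before thinning, 63.2% of neutrophils had a Col3a1 UMI (median depth 1880 UMIs) and 99.7% of fibroblasts did (median 26801 UMIs). After every cell was thinned to 1000 UMIs, which left out 429 neutrophils and 16 fibroblasts, the shares were 41.1% and 94.0%. A chain was therefore read as above background in a class when it exceeded the neutrophils by a factor of 2 or more in every library with 20 cells of both, a rule chosen after the data had been seen. Fibroblasts passed it with 19 of 36 chains (background over all 18467 genes tested, 15.8%) and pericytes with 19 of 36 (background 22.3%). Endothelial cells passed it with 7 (background 17.8%) and tumour cells with 8 (background 21.9%), both shares near those of all genes. Macrophages (background 2.6%) and lymphocytes (background 9.49%) passed it with none of the 36. Neutrophils were also shallow, while median depth was 8133 UMIs in macrophages, 4271 in lymphocytes and 18596 in tumour cells. The neutrophil collagen share of summed UMIs was above that of macrophages and lymphocytes in every library, and pooled it was 0.216% against 0.128% and 0.0808%. In libraries 2 to 4 the medians per cell were closer than these shares, with neutrophils still highest. Those of library 3 were 0.0765% in neutrophils, 0.0714% in macrophages and 0.0732% in lymphocytes. In library 1 the neutrophil median, 0%, was the lowest. By the summed share the rule is stricter than one set on those cells. The part of depth in it was not tested.

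Of the 44 chains, 36 had at least 50 UMIs in the gated cells and were compared between classes, and 26 had at least 500. CPM below means a gene's UMIs in a class, scaled to 1000000 in total, and since 3′ UMI counts do not grow with transcript length, CPM values are compared between genes without a length correction. Fibroblasts led 19 of the 36 chains and pericytes 11, while endothelial cells, tumour cells and keratinocytes led 2 each and immune cells none. Cells with Schwann cell markers were left out of this ranking. The count for pericytes was lower after thinning, which also weighs cells equally and drops rare chains. After thinning to 1000 UMIs, 24 chains kept 50 UMIs, of which fibroblasts led 15, endothelial cells 5 and pericytes 3. Over all 18467 genes tested, the corresponding shares were 13.3% led by fibroblasts, 17.9% by pericytes, 19.5% by endothelial cells, 14.4% by tumour cells, 14.8% by keratinocytes and 20.1% by immune cells. Of the 19 chains led by fibroblasts, 15 were led by them in every library. Of the 11 led by pericytes, 5 were led by them in both libraries with at least 20 pericytes. A stricter rule asked for a 4-fold lead over each other class in every library that held both, where a count under 3 UMIs in the other class was raised to 3. It was met in fibroblasts by 4 of the 36 chains, Col3a1, Col1a2, Col1a1 and Col14a1 (background 0.395%), and in keratinocytes by Col17a1 (background 0.796%). No chain met it in pericytes (background 0.785%), endothelial cells (background 0.612%), tumour cells (background 0.19%) or immune cells (background 1.2%).

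**Figure D1:**
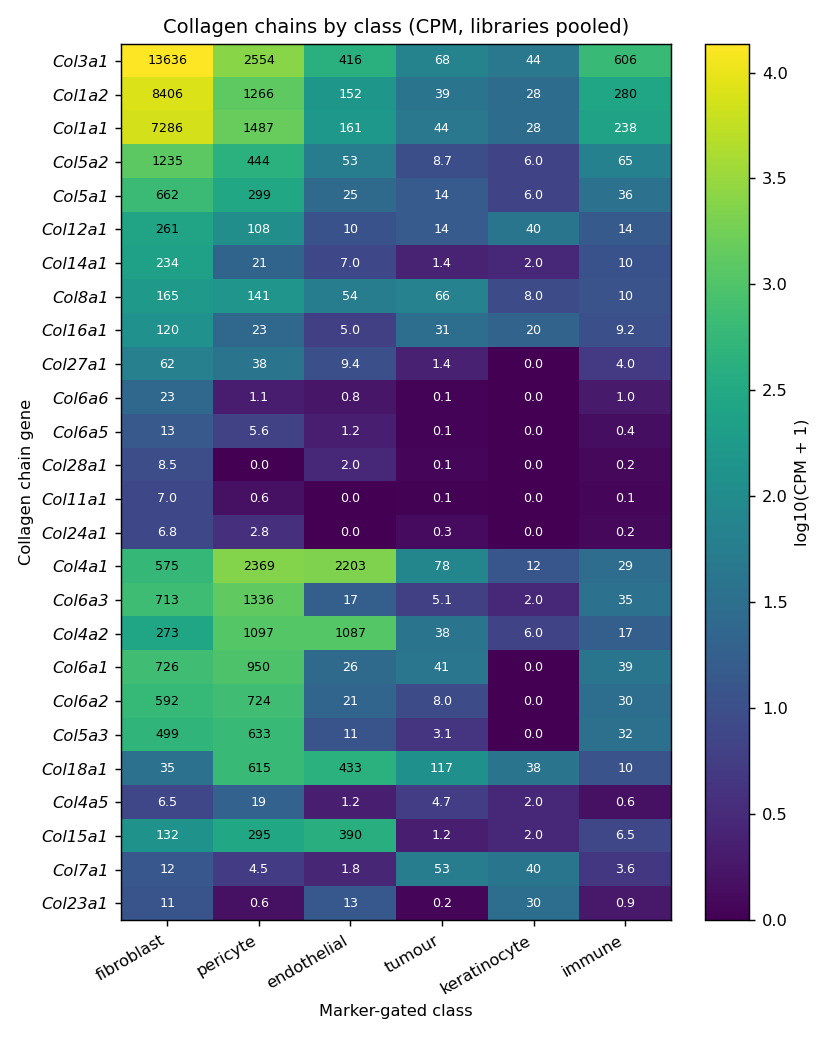
Level of the 26 chains with at least 500 UMIs in the 6 classes, with libraries pooled, as CPM in each cell and by colour as log10(CPM + 1), grouped by the class that leads. Col3a1 in fibroblasts, at 13636 CPM, is the highest, and Col4a1 stands out in pericytes and endothelial cells, at 2369 and 2203 CPM.

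Fibrillar chains, which assemble into the banded fibrils of connective tissue, held 89.1% of the collagen UMIs of fibroblasts, 46.5% of those of pericytes and 16.2% of those of endothelial cells. Col3a1, the chain of type III collagen, was the most abundant of all genes in fibroblasts, and Col1a2 and Col1a1, the partner chains of type I collagen, ranked 3 and 5. Col3a1 in fibroblasts was 12606, 21363, 7685 and 11308 CPM in libraries 1 to 4. Col1a2 was 11316, 14011, 4547 and 5225 CPM, and Col1a1 was 11107, 12826, 3632 and 3664 CPM. Library 2 was the highest for all 3 genes and library 3 the lowest. Without library 2 the pooled Col1a1 level was 3957 CPM in place of 7286, that of Col1a2 5038 in place of 8406 and that of Col3a1 8993 in place of 13636. Pericytes came next, with 2828 and 1682 CPM of Col3a1 in libraries 2 and 3. Tumour cells were below the neutrophils of the same library for all 3, with Col3a1 at 33.4 and 540 CPM against 58.1 and 1053 CPM in libraries 1 and 2.

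Type V collagen chains, which regulate the width of type I fibrils, were led by fibroblasts for Col5a2 and Col5a1 and by pericytes for Col5a3. In fibroblasts Col5a2 was 2068, 1784, 827 and 911 CPM in libraries 1 to 4, and Col5a1 was 697, 1002, 448 and 446 CPM. Col5a3 was 794 and 269 CPM in pericytes of libraries 2 and 3, and 703 and 375 CPM in fibroblasts of the same libraries, so the leading class changed with the library. The Col5a3 level in pericytes, 633 CPM in all, was 344 CPM without library 2. Rarer fibrillar chains were also led by fibroblasts. Col27a1 was 70.9, 80.9, 46.5 and 54.5 CPM across libraries 1 to 4. Col11a1, known from cartilage and desmoplastic stroma, was 6.99, 13.4, 4.24 and 0.324 CPM, and Col24a1 was 9.32, 12.7, 1.47 and 6.41 CPM. Both depended on library 2, and without it Col11a1 was 3.17 and Col24a1 3.30 CPM, in place of 7.01 and 6.82 CPM.

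Basement membrane chains were highest in vessel-associated cells. Type IV collagen held 64.2% of the collagen UMIs of endothelial cells and 24.2% of those of pericytes, against 2.40% in fibroblasts. Col4a1 was 2744, 2424 and 1151 CPM in endothelial cells of libraries 1 to 3 and 2750 and 1500 CPM in pericytes of libraries 2 and 3. Col4a2, its partner in the helix, was 1559, 1161 and 629 CPM in endothelial cells and 1193 and 805 CPM in pericytes. The levels of both classes overlapped, and for Col4a2 the counting intervals of the pooled levels, 1097 CPM in pericytes and 1087 CPM in endothelial cells, were not apart. Fibroblasts had less, with 159, 758, 509 and 412 CPM of Col4a1 in libraries 1 to 4, and library 1 was the lowest. The minor chain Col4a5 was 10.5 and 48.7 CPM in pericytes of libraries 2 and 3, and its pooled level of 19.1 CPM was 34.4 without library 2 and 10.8 without library 3.

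The multiplexins Col15a1 and Col18a1, basement membrane collagens with glycosaminoglycan side chains, were also high in vessel-associated cells, except for Col15a1 in library 3. Col15a1 was 374, 464 and 131 CPM in endothelial cells of libraries 1 to 3, and its pooled level of 390 CPM was 217 without library 2. In pericytes it was 404 and 105 CPM in libraries 2 and 3. The library 3 levels were near the 118 CPM of fibroblasts and came from 12 of 39 endothelial cells and 6 of 31 pericytes. Col18a1, the source of the endostatin fragment, was 672, 414 and 408 CPM in endothelial cells and 628 and 449 CPM in pericytes of libraries 2 and 3. Fibroblasts had more Col15a1 than Col18a1 in every library, with ratios of 6.32, 3.89, 4.54 and 1.50. Pericytes of libraries 2 and 3 had less, with ratios of 0.643 and 0.234, and endothelial cells lay on both sides, at 0.556, 1.12 and 0.320 in libraries 1 to 3. The fibroblast Col15a1 level was 241, 181, 118 and 51.0 CPM in libraries 1 to 4, and the fibroblast Col18a1 level was 38.2, 46.4, 25.9 and 33.9 CPM. Neutrophils had 28.5 and 23.7 CPM of Col18a1 in libraries 1 and 2, so that fibroblasts did not pass the neutrophil rule for this chain. Col13a1, a transmembrane collagen, was led by endothelial cells at 111, 6.56 and 14.0 CPM in libraries 1 to 3, but the 50 UMIs of library 1 came from 5 of its 54 cells.

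Beaded filament chains of type VI collagen, which link cells to the fibres around them, were shared by fibroblasts and pericytes. Col6a3 was 1517 and 846 CPM in pericytes of libraries 2 and 3, against 920 and 574 CPM in the fibroblasts of these libraries. Col6a1 was 1110 and 482 CPM in pericytes and 1060 and 505 CPM in fibroblasts, and Col6a2 was 871 and 377 CPM in pericytes and 857 and 413 CPM in fibroblasts. Only Col6a3 was higher in pericytes in both libraries. Without library 2 the pooled Col6a2 level in pericytes was 461 CPM in place of 724. The related chains Col6a5 and Col6a6 were rarer and were led by fibroblasts in every library. Col6a6 was 2.33, 39.0, 15.5 and 8.48 CPM in libraries 1 to 4, and Col6a5 was 1.86, 28.4, 4.93 and 3.50 CPM. Their pooled levels, 22.7 and 13.4 CPM, were 12.8 and 4.37 CPM without library 2.

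Fibril-associated chains, which decorate the surface of fibrils, and the remaining chains of medium level were led by fibroblasts too. Col14a1 was 186, 442, 95.3 and 129 CPM in fibroblasts of libraries 1 to 4 and 26.2 and 15.4 CPM in pericytes of libraries 2 and 3. Its pooled fibroblast level of 234 CPM was 109 CPM without library 2. Col16a1 was 162, 174, 83.7 and 87.7 CPM in fibroblasts. Col8a1, a short-chain network collagen of vessel walls, was 413, 180, 155 and 123 CPM in fibroblasts, and in library 3 pericytes led with 274 CPM. Col28a1, a rare chain known from nerve sheaths, was 5.13, 13.1, 5.86 and 5.50 CPM in fibroblasts. It was 108 CPM in the 29 cells with Schwann cell markers, which were not among the classes ranked.

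Library 1 fibroblasts stood more than 3-fold above the other libraries for 3 chains. Col12a1, a fibril-associated chain, was 1531 CPM in library 1 against 390, 131 and 112 CPM in libraries 2 to 4. Col7a1, the chain of the anchoring fibrils that tie epithelium to the dermis, was 345 CPM in library 1 against 6.61, 1.53 and 0.777 CPM. Col23a1, a transmembrane collagen, was 51.7 CPM in library 1 against 10.7, 11.8 and 2.33 CPM. For all 3 the library 1 value lay above the other 3 libraries. Neutrophils had 9.91, 0.612 and 1.04 CPM of Col7a1 in libraries 2 to 4, above the fibroblasts of libraries 2 and 4. Their Col23a1 level in library 4 was 1.69 CPM. The lowest fibroblast values of Col7a1 and Col23a1 are thus near or below the background level, and their ranges across libraries reach down to it. A UMI of Col12a1 was present in 93.9% of the 131 fibroblasts of library 1 and one of Col7a1 in 62.6%. After thinning to 1000 UMIs these shares were 67.2% and 23.7%. The 8 tumour markers summed to 548 CPM in library 1 fibroblasts and to 1.10 to 36.5 CPM in those of the other libraries. Neutrophils and endothelial cells of library 1 had 1191 and 449 CPM of these markers, so this level was not particular to the fibroblasts. Tumour cells of library 1 had 8348 CPM. Col7a1 was 48.2 CPM and Col12a1 13.2 CPM in those tumour cells, both below the levels in the fibroblasts of the library. These values cover gated tumour cells only. The part of tumour RNA in the fibroblast levels of these chains was not tested.

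Across the fibroblasts of the 4 libraries, 28 of 33 chains with at least 50 fibroblast UMIs differed at least 2-fold between the highest and the lowest library, against a background of 39.4% of 14645 genes. The median of the highest over the lowest level was 3.34 for the chains and 1.77 for all these genes. In these ratios a count under 3 UMIs was raised to 3, which for the rarest chains can set the highest level as well as the lowest. With only the lowest level raised, a rule added after seeing the data, the count was again 28 (background 37.4%). Fibroblast depth differed as well, with medians of 14715, 22620, 31291 and 31930 UMIs in libraries 1 to 4. The fibroblast markers summed to 5351, 8574, 5123 and 5790 CPM, highest in library 2 like most fibrillar chains. The part of depth, of cell make-up and of treatment in these differences was not tested, and treatment and library cannot be told apart.

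**Figure D2:**
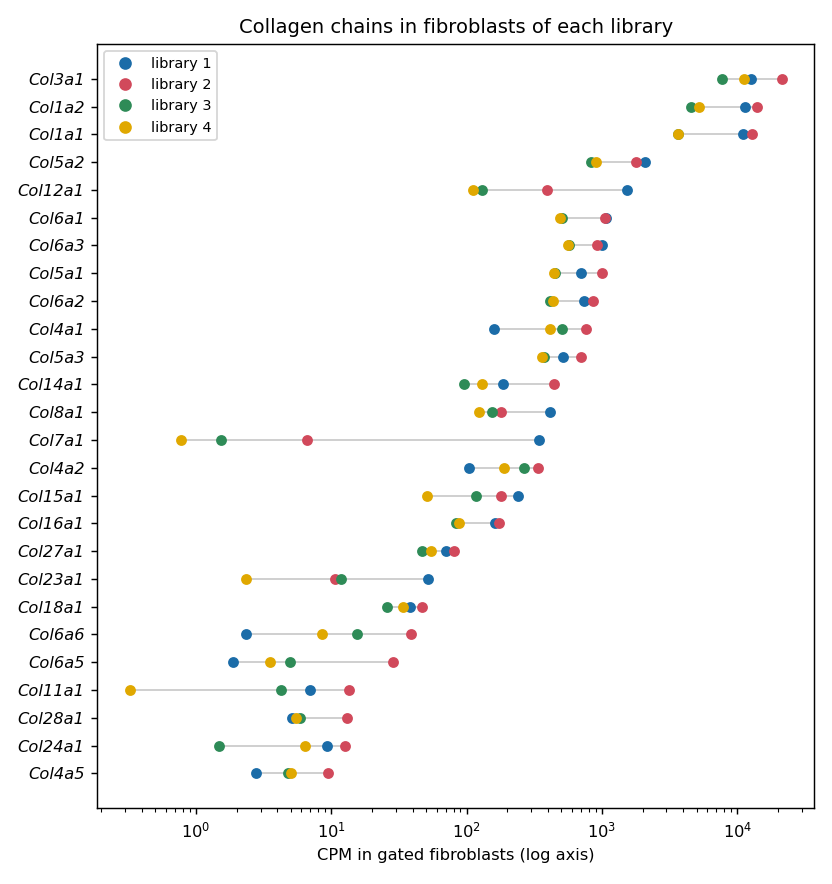
CPM of the 26 chains in gated fibroblasts (log axis), with 1 point per library and a grey line from the lowest to the highest. Library 2 is highest for most chains, and Col7a1 spans the widest range, from 0.777 CPM in library 4 to 345 CPM in library 1. The low end is below the 1.04 CPM of neutrophils in library 4.

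In tumour cells, 8 chains were above the neutrophil level in both of their libraries, a share near the background of 21.9% of all genes: Col16a1, Col18a1, Col4a1, Col4a2, Col4a5, Col6a1, Col7a1 and Col8a1. Each of them also passed this rule in fibroblasts, pericytes, endothelial cells or keratinocytes. Col18a1 was 110 and 210 CPM in tumour cells of libraries 1 and 2, and exceeded the fibroblasts of the same libraries. Col4a1 was 64.9 and 260 CPM, and Col4a2 was 30.9 and 134 CPM. Col7a1 was 48.2 and 121 CPM, and neutrophils of these libraries had 14.2 and 9.91 CPM. Col8a1 was 64.2 and 89.4 CPM, and Col16a1 was 29.4 and 46.6 CPM. Every one of these chains was higher in the 144 tumour cells of library 2 than in the 3321 of library 1. Summed fibroblast markers were also higher there, at 165 CPM against 31.4 CPM, and their part in the difference was not tested.

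Keratinocytes, all 35 from library 1, were marked by Col17a1, the transmembrane collagen of hemidesmosomes. Its level was 308 CPM (exact 95% Poisson interval 261 to 361), with a UMI in 27 of the 35 cells. In the other cells of library 1 Col17a1 was 1.11 CPM in tumour cells and 0.466 CPM in fibroblasts. Col7a1, which belongs to the same junction, was 40.0 CPM (24.4 to 61.8) in these keratinocytes. Col23a1 was 30.0 CPM in them, below the 51.7 CPM of library 1 fibroblasts.

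Partner chains gave ratios that can be compared between classes where both chains are above the background level. The ratio of Col4a1 to Col4a2 UMIs stayed within a narrow range. It was 1.53, 2.25, 1.92 and 2.17 in fibroblasts of libraries 1 to 4, 2.30 and 1.86 in pericytes of libraries 2 and 3, 1.76, 2.09 and 1.83 in endothelial cells of libraries 1 to 3, and 2.097 and 1.94 in tumour cells of libraries 1 and 2. Classes with type IV levels far apart held these neighbouring genes in similar proportion. Immune cells, which gave the background level, had ratios of 1.74, 1.76, 1.58 and 1.79 in libraries 1 to 4, inside the same range. A similar proportion therefore does not set the other classes apart from background.

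The type VI ratio differed in tumour cells, but Col6a3 was not above background there by the rule given for neutrophils. The ratio can therefore not be read as a trait of tumour cells. The ratio of Col6a1 to Col6a3 was 1.08, 1.15, 0.879 and 0.874 in fibroblasts and 0.732 and 0.570 in pericytes. In tumour cells it was 7.86 in library 1 (exact 95% interval 6.91 to 8.96) and 8.02 in library 2 (6.49 to 10.0), apart from every fibroblast and pericyte value. Immune cells had 2.76 (2.18 to 3.52) in library 1 and 1.50 in library 2. Within the immune cells of library 1, neutrophils had 3.29 (1.36 to 9.07) and lymphocytes 5.67 (2.35 to 16.5), on few UMIs. These 2 intervals overlap that of the tumour cells. Those of macrophages, at 2.56 (1.94 to 3.40), and of the remaining immune cells of library 1, at 2.25 (1.10 to 4.88), do not. In library 2, neutrophils had 1.48 (1.31 to 1.69), macrophages 1.38, lymphocytes 1.50 (0.796 to 2.89) and the remaining immune cells 1.93. All of these lie below the tumour interval of library 2. Col6a1 was 31.7 and 160 CPM in the tumour cells of libraries 1 and 2, which was 2.23-fold and 2.12-fold the neutrophil level. Col6a3 was 4.04 and 19.9 CPM, at or below the neutrophil levels of 4.33 and 50.8 CPM. Col6a2 was 5.59 and 40.3 CPM against 1.86 and 44.4 CPM in neutrophils, above them in library 1 only. The ratio of Col5a1 to Col5a2 also differed, at 1.69 and 1.55 in tumour cells of libraries 1 and 2 against 0.337 to 0.562 in fibroblasts, but neither gene was above background by the rule given for neutrophils. Col5a2 was 6.56 and 37.6 CPM in these tumour cells against 9.90 and 115 CPM in neutrophils, and Col5a1 was 11.1 and 58.1 CPM against 6.804 and 64.2 CPM.

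The ratio of Col1a1 to Col1a2 in fibroblasts was 0.982, 0.915, 0.799 and 0.701 in libraries 1 to 4, and the counting intervals of the 4 values did not overlap. Immune cells gave 1.01, 0.996, 0.757 and 0.781. Pericytes lay higher than the fibroblasts of their library, at 1.16 in library 2 and 1.19 in library 3. The ratio of Col3a1 to Col1a1 in fibroblasts was 1.14, 1.67, 2.12 and 3.09, and in immune cells of the same libraries it was 1.38, 2.12, 2.50 and 2.95. Fibroblasts and immune cells thus ran in the same order over the libraries for Col3a1 against Col1a1.

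**Figure D3:**
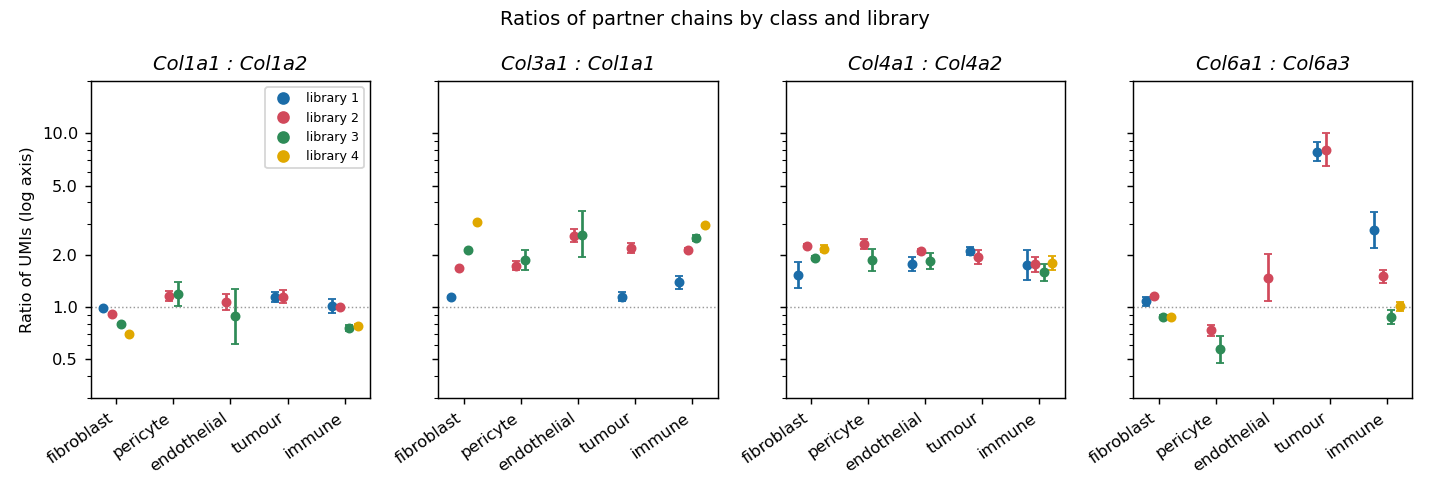
Ratio of UMIs of partner chains (log axis) by class, with 1 point per library that held at least 20 cells and 20 UMIs of the denominator, and exact 95% intervals. Col6a1 to Col6a3 in tumour cells, at 7.86 and 8.02, stands apart from fibroblasts and pericytes, but Col6a3 is not above the neutrophil level there. Col4a1 to Col4a2 lies between 1.53 and 2.30 in fibroblasts, pericytes, endothelial cells and tumour cells.

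Within fibroblasts some chains varied together from cell to cell, both partners of 1 helix and chains of different helices, and others did not. After thinning to 10000 UMIs, which left 96, 983, 841 and 438 cells in libraries 1 to 4, Spearman's rho between Col1a1 and Col1a2 was 0.900 to 0.941 in the 4 libraries. Among other partners it was 0.535 to 0.809 for Col6a1 and Col6a2, 0.570 to 0.770 for Col4a1 and Col4a2, 0.329 to 0.693 for Col6a1 and Col6a3, 0.317 to 0.686 for Col6a2 and Col6a3, and 0.285 to 0.704 for Col5a1 and Col5a2. Among chains of different types it was 0.789 to 0.921 for Col3a1 and Col1a2, 0.761 to 0.902 for Col3a1 and Col1a1, and 0.567 to 0.792 for Col1a1 and Col5a1. These are among the strongest pairs. Within type V it was lower for Col5a1 and Col5a3 (0.252 to 0.524) and for Col5a2 and Col5a3 (0.0159 to 0.509). Pairs across types that lay near 0 include Col1a1 and Col18a1 (-0.0571 to 0.202) and Col1a2 and Col8a1 (-0.274 to 0.159). Col12a1 and Col14a1, both fibril-associated, gave -0.46, -0.20, 0.098 and -0.087, with no common sign. The cells of a library share its depth, its free RNA and its mouse or mice. These values are descriptions over 17 chains, given without values for pairs of other genes.

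The fibroblasts were divided by the genes Lrrc15, a surface protein of tumour fibroblasts, and Dpt, an extracellular matrix protein of many tissue fibroblasts. Cells with an Lrrc15 UMI numbered 835, cells with a Dpt UMI and none of Lrrc15 numbered 1657, and 307 had neither. Collagen made up 4.96%, 3.18% and 1.14% of their UMIs, but the libraries contributed unequally, since 108 of the 131 fibroblasts of library 1 had Lrrc15. Within libraries 2, 3 and 4 the share was 6.26%, 2.87% and 2.87% in cells with Lrrc15 and 5.55%, 2.09% and 2.41% in cells with Dpt, higher with Lrrc15 each time. In library 1 it was 4.46% with Lrrc15 and 6.08% in the 13 cells with Dpt. Cells with Lrrc15 were also deeper in libraries 2 to 4, with medians of 28325.5, 36450 and 37465 UMIs. Cells with Dpt had 19047.5, 31581 and 32472, and cells with neither had 15405 over all libraries. The part of depth in these shares was not tested.

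Single chains differed moderately between these cells. None of 30 chains was 2-fold higher in every library with Lrrc15 (background 0.0625%) or with Dpt (background 0.0972%), where library 1 was left out because only 13 of its fibroblasts had Dpt and no Lrrc15. The rule again raised counts under 3 UMIs in the lower set to 3. When only a count of 0 was raised, a change made after seeing the data, Col4a4 was more than 2-fold higher with Dpt in all 3 libraries (background 0.229%), on 82, 23 and 10 UMIs with Dpt against 19, 2 and 1 with Lrrc15. Of 19 chains with at least 20 UMIs in both sets of each of libraries 2 to 4, 7 were higher with Lrrc15 in all 3 libraries (background 14% of 9344 genes) and 4 were lower in all 3 (background 18.9%). The share of lower chains was thus near that of all genes. The 7 were Col12a1, Col1a1, Col1a2, Col3a1, Col5a1, Col5a2 and Col5a3. Col12a1 was 2.24-fold, 1.51-fold and 1.33-fold higher in libraries 2 to 4, and Col1a1 was 1.35-fold, 1.69-fold and 1.40-fold. The 4 lower chains were Col4a1, Col4a2, Col6a3 and Col8a1. The ratio for Col4a1 was 0.410, 0.671 and 0.725, and for Col4a2 it was 0.426, 0.667 and 0.652. For Col8a1 it was 0.715, 0.839 and 0.796. For Col6a3 it was 0.775, 0.999 and 0.933, so that its level in library 3 was nearly the same in both sets. Col6a6 showed no common side, with ratios of 0.211, 0.469 and 1.42.

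**Figure D4:**
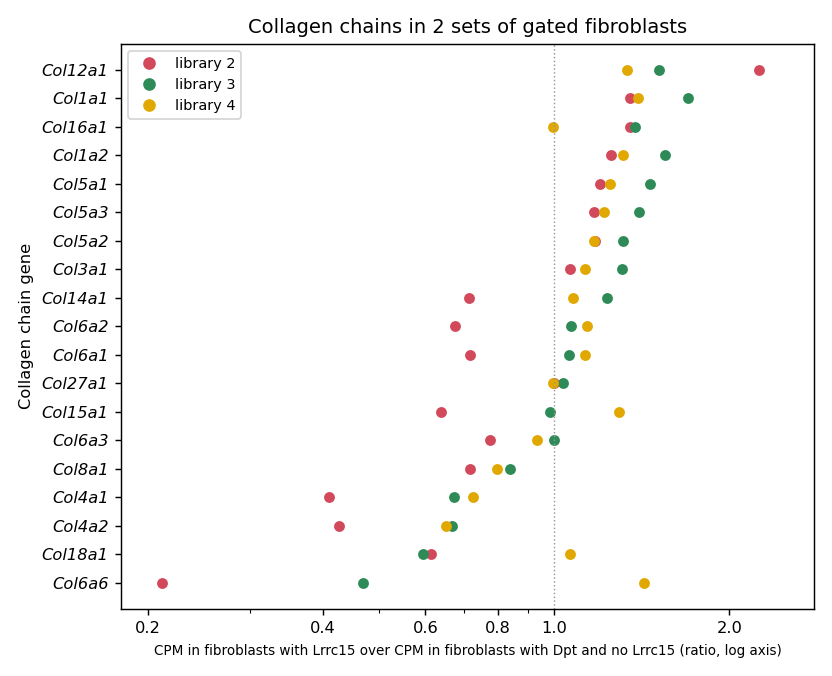
Ratio of the CPM in fibroblasts with Lrrc15 to that in fibroblasts with Dpt and no Lrrc15 (log axis) for the 19 chains with enough UMIs, with 1 point for each of libraries 2, 3 and 4. Col12a1 and the fibrillar chains of types I, III and V lie above 1 in all 3 libraries, and Col4a1, Col4a2, Col6a3 and Col8a1 lie below it. Col6a3 is barely below 1 in library 3, at 0.999.

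The 18 chains under 500 UMIs were low in nearly all cells. Col17a1 and Col13a1 were described above. Col4a4, Col4a6, Col6a4, Col8a2, Col9a3, Col11a2, Col20a1 and Col26a1 reached 50 UMIs in the gated cells, and their level in the leading class ran from 0.565 CPM (Col9a3) to 6.17 CPM (Col6a4 in pericytes). Col2a1, Col4a3, Col9a1, Col9a2, Col10a1, Col19a1, Col22a1 and Col25a1 stayed under 50 UMIs and were not compared, with leading levels of 0.0851 CPM (Col9a1) to 2.24 CPM (Col25a1). Col2a1, Col9a1 and Col10a1 are best known from cartilage. At this depth their absence from a class cannot be shown, and for the 0 UMIs of Col9a1 in 2799 fibroblasts the limit of 3 UMIs was 0.0368 CPM and the exact 95% Poisson bound 0.0453 CPM.

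The enzymes and chaperones that make collagen were, like the chains, led mostly by fibroblasts. Of 31 genes of this list with at least 50 UMIs, from 32, fibroblasts led 25 (background over all genes tested, 13.3%). Lox and Loxl1, which crosslink collagen, met the 4-fold rule in fibroblasts (background 0.395%). Serpinh1, the collagen chaperone of the endoplasmic reticulum, was 1617 CPM in fibroblasts and 1294 CPM in pericytes. Ppib, which turns prolines in the new chain, was 998 CPM in fibroblasts and 505 to 824 CPM in pericytes, endothelial, tumour and immune cells. Lox was 994 CPM in fibroblasts and at most 61.2 CPM elsewhere. Other classes led for 6 genes. Adamts2, which trims the amino end of procollagen, was 229 CPM in pericytes and 221 CPM in fibroblasts. P3h2, a prolyl 3-hydroxylase, was 34.8 CPM in pericytes, and Mia2, which helps export large cargo, was 83.9 CPM in immune cells.

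Collagen receptors were spread more evenly over the classes than the biosynthesis genes. Among 10 genes with at least 50 UMIs, from 11, fibroblasts led 3 (background 13.3%), pericytes 3 (17.9%) and keratinocytes 2 (14.8%). Endothelial cells (19.5%) and immune cells (20.1%) led 1 each. Itgb1, the common beta chain of collagen-binding integrins, was 1088 CPM in pericytes and 426 CPM in fibroblasts. Its partner Itga1 was 641 CPM in pericytes, 118 CPM in endothelial cells and 21.7 CPM in fibroblasts. Itga1 met the 4-fold rule in pericytes (background 0.785%). Ddr2, a kinase receptor for fibrillar collagen, was 160 CPM in fibroblasts. Mrc2, which takes up collagen for breakdown, was also 160 CPM there and met the 4-fold rule (background 0.395%). Lair1, an inhibitory collagen receptor of leukocytes, was 72.0 CPM in immune cells, and Adgrg1, which binds type III collagen, was 136 CPM in endothelial cells. The median log2 ratio of the fibroblast to the immune level was 3.46 over the 36 collagen chains, 3.27 over the biosynthesis genes, 0.86 over the receptors and 0.09 over all 18467 genes tested.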

How the data were processed

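Cells of 4 samples were profiled with the 10x Genomics 3′ protocol. The authors deposited 1 matrix of whole-number UMI counts, not scaled per cell, made with Cell Ranger (version 3.0.2 in the methods, 6.1.2 in the file header, 2.1.1 in the submitters' processing notes, which also name the build mm10). The labels state 15603 cells after the same filters that left 32133 of 33064 barcodes here. All 55450 identifiers were found in GENCODE vM21, used for coordinates. Promoters came from RefSeq (GRCm38.p6).

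From the deposited counts, UMIs were summed by class and library and given as CPM or percent, with exact (Clopper-Pearson or Poisson) 95% intervals, in Python 3.11.15 with numpy 2.4.6, scipy 1.17.1 and pandas 2.3.3. A class needed 3 of 8 markers and a lead of 2. No doublet caller was run: the lead removed only cells with nearly as many markers of a second class, so that mixed cells can remain, and an alternative dropped the 5% of cells with most UMIs. For folds, counts under 3 UMIs were raised to 3. Background classes and thinning to 1000 UMIs (random seed 1) are described with the results. The gate and the fold rule were also run on simulated cells drawn from the profiles of cells already gated. Keratinocytes were left out, and no free RNA or mixed cells were added. That run therefore cannot show how the gate performs on mixed barcodes.

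The members, marker lists and pathway lists were chosen with earlier results of these data known. Chains with at least 500 UMIs in gated cells were named with their values, the others by range and count, and of each pathway list the 3 highest in fibroblasts and up to 3 led by another class. Neutrophil comparisons, receptors beyond that rule, and the Lrrc15 and Dpt counts per side, with 2 other uses of the floor, were added after the values had been seen. Alternatives changed the gene and mitochondrial limits, the gate, depth, library weights and the fold.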

Additional observations from a re-analysis of the deposited data

Results flagged for a closer look

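Cells that entered no comparison also held collagen RNA. The 3569 kept cells that met no class had 1.31% collagen UMIs, above the 0.216% of neutrophils. Of these, 1155 had at least 3 fibroblast and at least 3 immune markers, with a median of 42504 UMIs and 1.79% collagen, and 555 of the 1155 were in library 4. Whether such barcodes held more than 1 cell was not tested.

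The 29 cells with Schwann cell markers had 0.366% collagen UMIs, again above neutrophils. Col18a1 was 689 CPM in them. Col28a1, a chain known from nerve sheaths, was 108 CPM (exact 95% Poisson interval 66.9 to 165), with a UMI in 13 of the 29 cells, against 8.50 CPM in fibroblasts. Col20a1 was 123 CPM there, but all of its 24 UMIs came from 1 cell.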

How the results depend on the processing

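No paired analysis was possible because no source used here ties a library to a sample, and no result comes from a test. The collagen share in fibroblasts, pericytes, endothelial, tumour and immune cells, 3.57%, 1.45%, 0.512%, 0.0643% and 0.148%, was 4.01%, 1.50%, 0.547%, 0.0587% and 0.108% with the stricter gate (4 markers, a lead of 3) and 3.29%, 1.42%, 0.536%, 0.0714% and 0.257% with the looser one (2 markers, a lead of 1). It was 4.18%, 1.29%, 0.548%, 0.0613% and 0.128% after thinning to 1000 UMIs, and 3.67%, 1.27%, 0.477%, 0.140% and 0.138% with equal weight for each library. Without the 5% of cells with most UMIs it was 3.84%, 1.38%, 0.548% and 0.0989% in fibroblasts, pericytes, endothelial and immune cells. With markers counted from 100 CPM, an alternative added after seeing the data, it was 3.24%, 1.51%, 0.552%, 0.0760% and 0.136% in the 5 classes. Leaving out 1 library gave 2.28% to 4.62% in fibroblasts, 1.11% to 1.60% in pericytes, 0.387% to 0.556% in endothelial cells, 0.0522% to 0.228% in tumour cells and 0.128% to 0.175% in immune cells. The low fibroblast value was without library 2 and the high tumour value without library 1. The ratio of Col1a1 to Col1a2 in fibroblasts, 0.867, was 0.877, 0.862, 0.890 and 0.853 with the stricter gate, the looser gate, equal weights and 100 CPM markers, and 0.785 to 0.889 without 1 library. The cause of these shifts was not tested. A 2-fold rule was met by 8 chains in fibroblasts in place of 4 (background 0.921% of all genes in place of 0.395%). The number of chains led by fibroblasts stayed between 15 and 20 under all alternatives. Those led by pericytes were 11 of 36 as reported and 3 of 24 after thinning. Endothelial cells led 4 in place of 2 with the stricter gate, without the 5% of cells with most UMIs, with equal weights and without library 2. Tumour cells led 1 with the stricter gate or without library 2, 0 after thinning and 4 without library 1, in place of 2. With only counts of 0 raised to 3, 1 chain in place of 0 was 2-fold higher with Dpt. Few cells limit pericytes, endothelial cells and keratinocytes most.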
